A study of Mus with 2 samples.

Results

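Glycolysis and gluconeogenesis were followed through 9 enzyme genes, Hk1, Hk2, Aldoa, Pkm, Ldha, Ldhb, Pck1, Fbp1 and G6pc, taken by symbol from the 28693 features counted in each library. All 9 were present and passed the filter on low counts, G6pc through its proximal tubule counts alone and the other 8 also through at least 6 sums of other classes. Cells were taken from mouse kidney on the day of birth (P0). The animals were Rbpj c/- ; Foxd1cre/+, so that Cre recombinase expressed from Foxd1 deletes a floxed Rbpj allele in the renal interstitium. The Rbpj product binds DNA and carries the signal of activated Notch receptors to target genes. Both libraries analysed, numbered replicates 1 and 2, have this genotype. Control libraries (Rbpj c/+ ; Foxd1cre/+) are part of the study and were not analysed here, so every comparison is between cell classes of mutant kidneys and none is between genotypes. Foxd1-driven Cre acts in the stromal lineage, so the nephron, ureteric and blood lineages were not its stated target. By its notation the second Rbpj allele (-) is a null that does not depend on Cre, so cells of all classes would carry it.

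Glycolysis splits glucose to pyruvate, starting with phosphorylation by a hexokinase and ending with pyruvate kinase, and lactate dehydrogenase interconverts pyruvate and lactate. Gluconeogenesis runs the pathway backwards and bypasses its irreversible steps with phosphoenolpyruvate carboxykinase (Pck1), fructose-1,6-bisphosphatase (Fbp1) and glucose-6-phosphatase (G6pc). In the adult kidney the proximal tubule is the site of gluconeogenesis and burns fatty acids, lactate and other fuels, while distal segments and the medulla depend more on glycolysis. Progenitor cells of the developing kidney are known for a high glycolytic rate. RNA levels, which are all that was measured here, do not give enzyme activity or flux.

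The assay was droplet-based 10x Chromium sequencing of 3' cDNA ends, counted without normalization as unique molecular identifiers (UMIs, each standing for 1 captured RNA molecule). Replicates 1 and 2 held 163405630 and 135436576 UMIs, and 5910 and 4937 barcodes were kept as cells. Of the barcodes with at least 2000 UMIs, 8 had the same sequence in both libraries. Cells were gated on marker genes that do not include any of the 9 enzymes, and 4614 and 3909 cells fell into 10 classes, from 93 and 81 loop of Henle cells to 1012 and 910 stromal cells. The proximal tubule class held 176 and 115 cells, the nephron progenitors 816 and 874 and the early nephron (Wnt4, Lhx1, Jag1 and other markers of the first epithelial stages) 578 and 542. In each class the class's own markers had the highest summed level of all 12 marker lists. Levels are given as counts scaled to 1000000 UMIs of a class in a library (CPM); counts from 3' ends do not grow with transcript length, so levels of different genes are on 1 scale, with differences in capture not corrected. The proximal tubule list stood at 3116 and 3104 CPM in its own class, at 114 and 111 in the early nephron and at 36.2 or less in every other class. The gate divides a continuous score: 24 and 20 of the proximal tubule cells scored less than 0.05 above the threshold of 0.3. In erythroid cells the 6 erythroid markers stood at 829136 and 798087 CPM, and none of the 9 enzymes stood above 65.0 CPM there.

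The gene positions are those of RefSeq's annotation of GRCm38.p6. Hk1 lies on chromosome 10 (62268855 to 62379920), Hk2 on chromosome 6 (82725025 to 82774454) and Aldoa on chromosome 7 (126795234 to 126800994). Pkm lies on chromosome 9 (59656576 to 59679372), Ldha on chromosome 7 (46842274 to 46855627) and Ldhb on chromosome 6 (142490249 to 142507957). Pck1 lies on chromosome 2 (173153073 to 173159274), Fbp1 on chromosome 13 (62864753 to 62888298) and G6pc on chromosome 11 (101367716 to 101377903). All 9 are protein-coding. Aldoa, Ldha and Pkm have near-identical retrocopies or pseudogenes in the mouse genome, and an antisense gene (Hk1os) overlaps Hk1; how reads shared with such copies were counted is not given in the sources used here, so these levels are uncertain to that extent.

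The hexokinases, which trap glucose in the cell as glucose-6-phosphate, differed in where they were highest. Hk1, the widely expressed isozyme, was highest in the loop of Henle (133 and 113 CPM in replicates 1 and 2), the ureteric epithelium (91.5 and 84.8) and the endothelium (69.4 and 60.8). It was intermediate in stroma (29.2 and 27.7), nephron progenitors (27.2 and 28.7), podocytes (13.3 and 18.7), immune cells (15.1 and 16.1) and the early nephron (12.9 and 13.5), and lowest in erythroid cells (4.76 and 2.22) and the proximal tubule (3.11 and 1.56). Stroma and nephron progenitors overlapped between libraries, as did podocytes and immune cells, and erythroid cells and the proximal tubule; the other neighbouring classes in this order did not. Hk2, the insulin- and hypoxia-responsive isozyme of muscle, fat and proliferating cells, was highest in immune cells (58.6 and 43.6) and the ureteric epithelium (28.2 and 23.3), followed by the early nephron (18.0 and 15.5), nephron progenitors (19.98 and 12.7), the loop of Henle (12.3 and 6.69) and stroma (9.56 and 5.34). Endothelial cells (1.85 and 0.813), podocytes (1.18 and 0.891), erythroid cells (0.792 and 1.11) and the proximal tubule (1.22 and 0) were close to 0, and each of these overlapped its neighbour, as did the early nephron and nephron progenitors, and the loop and stroma. In the proximal tubule this was 23 and 8 UMIs of Hk1 and 9 and 0 UMIs of Hk2 in all, where a count of 0 in replicate 2 allows up to 0.587 CPM. Replicate 1 was above replicate 2 for Hk2 in 9 of the 10 classes.

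Expressed as a share of the summed Hk1 and Hk2 UMIs, Hk2 made up 79.5% and 73.0% in immune cells, 58.3% and 53.4% in the early nephron and 42.3% and 30.6% in nephron progenitors. The share was 23.6% and 21.6% in the ureteric epithelium, 24.7% and 16.2% in stroma, 8.44% and 5.59% in the loop of Henle, 8.11% and 4.55% in podocytes and 2.60% and 1.32% in the endothelium. Hk2 was the larger of the pair in immune cells and the early nephron and the smaller in nephron progenitors, stroma, endothelium, podocytes, loop and ureteric epithelium, in both libraries. The proximal tubule counts were too low for a share to be read.

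Aldoa encodes the broadly expressed aldolase that splits fructose-1,6-bisphosphate. It was found in every class and was highest in the loop of Henle (870 and 825 CPM), then the proximal tubule (551 and 469), the ureteric epithelium (419 and 413), immune cells (400.1 and 364) and podocytes (349 in each). Endothelium (274 and 258), stroma (202 and 176), nephron progenitors (179.8 and 175) and the early nephron (173 and 164) followed, with 34.9 and 40.1 in erythroid cells. Only stroma and nephron progenitors overlapped among neighbours in this order.

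Pkm encodes the pyruvate kinase of most tissues, whose M1 and M2 splice forms share their 3' end and are not told apart by these counts. Its order was different from that of Aldoa, with immune cells (480.1 and 379), ureteric epithelium (384 and 356), loop of Henle (308 and 314), early nephron (279 and 289), nephron progenitors (261 and 258), endothelium (249.8 and 266), stroma (201 and 210.1) and podocytes (176 and 215) within a narrow band. The proximal tubule stood far below that band at 60.4 and 46.9, above erythroid cells only (21.4 and 15.6). A Pkm UMI was found in 64.2% and 63.5% of proximal tubule cells against 94.7% and 93.1% of nephron progenitors, although the median proximal tubule cell was deeper (23738 and 25064 UMIs against 15152 and 14088). After every cell was thinned to 4600 UMIs the shares were 22.5% and 12.3% in the proximal tubule and 66.3% and 64.4% in the progenitors. Thinning left out 3 and 1 proximal tubule cells and 6 and 2 progenitors that were shallower.

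**Figure D1:**
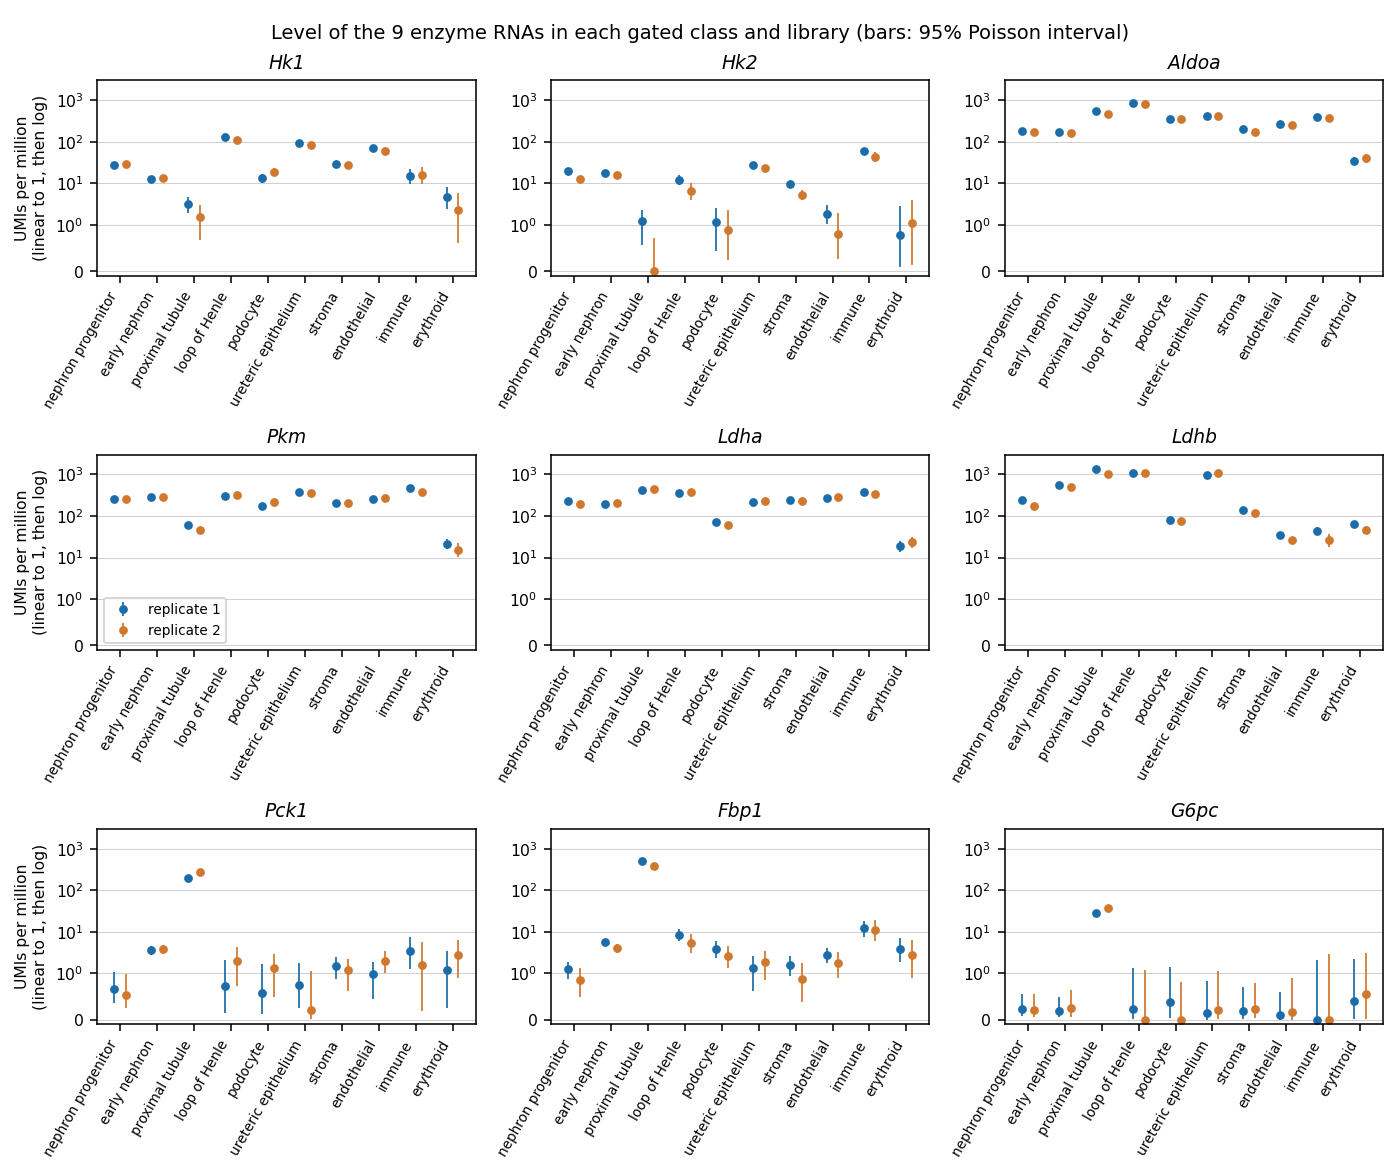
Level of each enzyme RNA in each of the 10 gated cell classes; the vertical axis is UMIs scaled to CPM of the class, linear from 0 to 1 and logarithmic above, each point is 1 library and bars are exact 95% Poisson intervals of the count. Pck1, Fbp1 and G6pc stand out in the proximal tubule, where Hk1, Hk2 and Pkm are near the bottom of their ranges. The 2 libraries mostly lie close together, with wider gaps where counts are near 0. Gaps at higher counts include Hk2 in nephron progenitors (19.98 and 12.7 CPM) and Ldhb in immune cells (44.6 and 26.6).

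The lactate dehydrogenase subunits Ldha and Ldhb form the tetramers that convert between pyruvate and lactate, the A subunit being that of muscle and glycolytic tissue and the B subunit that of heart and other oxidative tissue. Ldhb was by far the more variable of the pair. It reached 1313 and 1047 CPM in the proximal tubule, 1058 and 1077 in the loop of Henle and 950.1 and 1060 in the ureteric epithelium, 3 classes whose ranges overlapped. It stood at 569.7 and 490.2 in the early nephron, 242 and 170.3 in nephron progenitors, 141 and 120.1 in stroma, 78.6 and 74.1 in podocytes and 65.0 and 46.2 in erythroid cells. Immune cells (44.6 and 26.6) and endothelial cells (34.1 and 26.8) had the least. Ldha spanned a smaller range, from 421 and 437 in the proximal tubule, 349 and 373 in the loop, 372 and 332 in immune cells and 275 and 279.9 in the endothelium down to 73.1 and 61.5 in podocytes and 18.6 and 23.4 in erythroid cells. Stroma (246 and 231), ureteric epithelium (223 and 234), nephron progenitors (226 and 192) and the early nephron (198 and 200.5) lay between and overlapped in that order.

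The share of Ldha in the summed Ldha and Ldhb UMIs differed widely between classes. It was 89.3% and 92.6% in immune cells, 89.0% and 91.3% in the endothelium and 63.6% and 65.8% in stroma. Nephron progenitors (48.3% and 53.0%) and podocytes (48.2% and 45.3%) had about equal amounts of the pair. The share was 25.8% and 29.0% in the early nephron, 24.3% and 29.4% in the proximal tubule and 24.8% and 25.7% in the loop, and lower in the ureteric epithelium (19.0% and 18.1%). The early nephron share thus overlapped that of the proximal tubule and lay below that of the progenitors, in both libraries. With barcodes below 5000 UMIs left out, each of these mean shares moved by less than 1 SD of the 2 libraries.

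**Figure D2:**
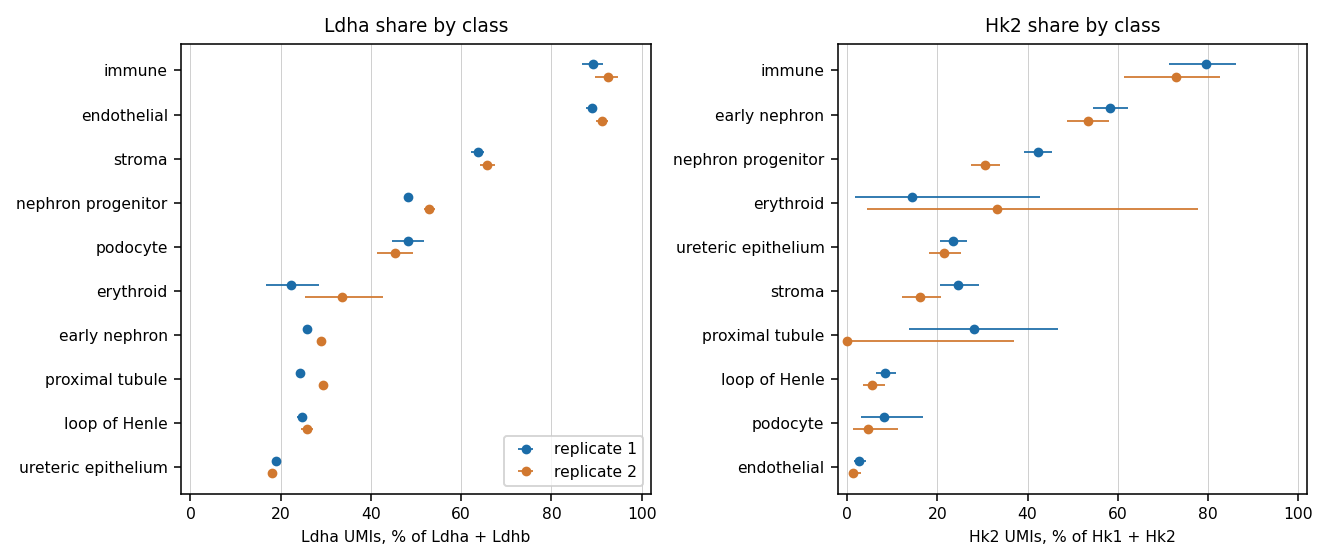
Share of Ldha in summed Ldha and Ldhb UMIs (left) and of Hk2 in summed Hk1 and Hk2 UMIs (right) in each class, in percent; each point is 1 library and bars are exact 95% binomial intervals, which cover counting error only. Immune and endothelial cells are near 90% for Ldha, and tubule classes lie between 18.1% and 29.4%; the Hk2 share of proximal tubule and erythroid cells rests on few UMIs.

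Pck1, Fbp1 and G6pc carry the reactions particular to gluconeogenesis. Pck1, which makes phosphoenolpyruvate from oxaloacetate, stood at 193 and 270.0 CPM in the proximal tubule. The early nephron was next at 3.62 and 3.83, and every other class mean was 2.55 or less. Fbp1 stood at 493 and 393 in the proximal tubule, 12.2 and 11.3 in immune cells, 8.44 and 5.35 in the loop of Henle and 5.64 and 4.02 in the early nephron, and its mean was at most 3.37 elsewhere. G6pc, the catalytic subunit that releases free glucose, stood at 27.7 and 37.7 in the proximal tubule from 205 and 193 UMIs, while the other 9 classes held 0 to 5 UMIs each per library. The proximal tubule was thus above all other classes in both libraries for these 3 enzymes, and Pck1 and G6pc were higher in replicate 2 where Fbp1 was higher in replicate 1. Proximal tubule cells were 2.98% and 2.33% of all cells kept and held 84.1% and 80.6% of all Fbp1 UMIs, 82.1% and 83.0% of Pck1 UMIs and 90.7% and 90.2% of G6pc UMIs.

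From the summed counts of both libraries, Pck1 was 375-fold higher in the proximal tubule than in nephron progenitors (95% interval 252 to 587), 60.5-fold higher than in the early nephron (51.0 to 72.4) and 161-fold higher than in stroma (110 to 245). Fbp1 was 412-fold higher than in nephron progenitors (306 to 568), 91.7-fold higher than in the early nephron (79.1 to 107) and 38.3-fold higher than in immune cells (27.5 to 55.0). G6pc was 142-fold higher than in nephron progenitors (73.9 to 312), and at least 31.4-fold higher than in immune cells, where no UMI was counted, taking 3 counts over both libraries as the limit. These intervals cover counting error only, and the counts include free RNA.

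Free RNA, released by broken cells, can be counted in any droplet. Droplets with 1 to 100 UMIs, which hold no cell, had 22.4 and 23.0 CPM of Pck1, 30.1 and 31.5 of Fbp1 and 2.84 and 2.49 of G6pc, above all classes other than the proximal tubule. For each 100 UMIs of the 9 proximal tubule markers, these droplets held 11.0 and 11.1 UMIs of Fbp1 and 8.16 and 8.10 of Pck1, and proximal tubule cells held 15.8 and 12.6 of Fbp1 and 6.20 and 8.70 of Pck1. Nephron progenitors held 12.1 and 7.62 of Fbp1, on either side of the droplets, and 6.03 and 4.76 of Pck1, below them. Stroma held 12.4 and 7.41 of Fbp1 and 11.7 and 10.2 of Pck1, the latter above the droplets. G6pc stood at 2.16 and 1.90 in progenitors, from 5 and 4 UMIs, against 1.03 and 0.878 in the droplets. The part of free RNA in these low counts was not tested. The early nephron had less Fbp1 (4.93 and 3.62) and Pck1 (3.16 and 3.45) for its marker level than the droplets. Immune cells (77.8 and 100 of Fbp1, from 21 and 14 UMIs) and the loop (83.3 and 36.4, from 35 and 16 UMIs) had more Fbp1 than the droplets, as did endothelium (29.1 and 20, from 25 and 11 UMIs) and podocytes (23.5 and 22.6, from 20 and 12 UMIs).

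Among proximal tubule cells the 3 gluconeogenic RNAs were unevenly spread. The median cell had 4.89 and 3.66 Fbp1 UMIs per 10000, with 10% of cells at or under 0.611 and 0.653 and 10% at or over 10.51 and 8.15. For Pck1 the median was 1.33 and 2.22 and the highest 10% of cells began at 4.44 and 5.46. Ldhb was steadier, with a median of 13.1 and 10.4, 10% of cells at or under 7.997 and 5.56 and 10% from 20.6 and 17.0 upwards. After thinning to 4600 UMIs, 75.7% and 78.9% of proximal tubule cells had a Fbp1 UMI, 41.6% and 57.9% a Pck1 UMI and 7.51% and 14.0% a G6pc UMI, against 0.494% and 0.344%, 0.494% and 0.344%, and 0.247% and 0.344% of nephron progenitors. At that depth 17.3% and 9.65% of proximal tubule cells had none of the 3, 45.7% and 42.1% had 1, 31.8% and 36.0% had 2 and 5.20% and 12.3% had all 3. Of 13 and 16 cells with a G6pc UMI, 9 and 15 also had a Pck1 UMI.

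The proximal tubule was then compared with nephron progenitors, the Six2 and Cited1 cells from which nephrons arise. Tests used edgeR's quasi-likelihood method on UMI sums per class and library, with Benjamini-Hochberg adjustment over 14965 genes. Nothing in the labels says that the libraries come from separate animals. The p-values measure how far class sums still vary between these 2 libraries once their overall difference is taken out. That spread is estimated over all classes together and may be technical. G6pc, which only its proximal tubule counts had carried past the filter, is given here without a test, at a fitted log2 difference of 7.11 (8.14 with a mitochondrial limit of 20%). The other 8 enzymes passed an adjusted p of 0.05, 5 higher and 3 lower, in a comparison in which 67.2% of all genes passed (32.2% higher, 35.0% lower); with that background the count says little, and sizes are more informative. Fbp1 was higher by 8.70 ± 0.14 on the log2 scale (SE, adjusted p = 3.79e-23) and Pck1 by 8.58 ± 0.19 (7.18e-21). Ldhb was higher by 2.57 ± 0.12 (6.2e-15), Aldoa by 1.56 ± 0.08 (2.3e-14) and Ldha by 1.08 ± 0.09 (1.96e-10). Hk2 fell by 4.48 on the log2 scale (SE 0.34, adjusted p = 4.89e-11), Hk1 fell by 3.46 (SE 0.23, 2.94e-12) and Pkm fell by 2.22 (SE 0.13, 3.06e-13). The Hk2 value rests on 9 UMIs in replicate 1 and none in replicate 2: without replicate 2 the difference was -3.92, and without replicate 1 a fitted -7.69 that depends on the prior count. With no doublet removal it was -3.40, with a mitochondrial limit of 20% -3.73 and without barcodes over 50000 UMIs -5.22. For Hk1 it was -3.06 without replicate 2 and -4.11 without replicate 1. Every one of these directions was the same in both libraries, with Hk1, Hk2 and Pkm lower and Aldoa, both lactate dehydrogenases and the gluconeogenic enzymes higher.

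Other enzymes on the pathway, from lists that do not contain the 9, were counted in the same comparison, with a median log2 difference of -0.09 over all genes. Of 16 further glycolytic genes 8 were higher, 3 lower and 5 not past the threshold, with a median of 0.33. Pfkp, the platelet-type phosphofructokinase, was 4.53 ± 0.18 higher and Tpi1, triose phosphate isomerase, 1.62 ± 0.09. In the proximal tubule Pklr, the liver-type pyruvate kinase, reached 20.5 and 23.9 CPM, below Pkm at 60.4 and 46.9, with 1 Pklr UMI in each library's progenitors. Of 5 further gluconeogenic genes 3 were higher and 2 were not past the threshold, with a median of 3.94: Fbp2, the muscle isozyme of Fbp1, by 9.29 ± 0.20, Pcx, the pyruvate carboxylase that feeds Pck1, by 4.60 ± 0.12 and Slc37a4, the glucose-6-phosphate translocase that works with G6pc, by 3.94 ± 0.13. Of 8 glucose and lactate transporters 3 were higher and 5 lower. Slc2a2, the glucose transporter GLUT2, was 9.62 ± 0.20 higher, and Slc5a1, the sodium-glucose transporter SGLT1, 9.21 ± 0.24. Slc2a4, the glucose transporter GLUT4, fell by 8.74 (SE 1.01) and Slc16a3, the lactate exporter MCT4, fell by 4.39 (SE 0.52). All 12 genes of the TCA cycle list were higher, with a median of 0.85, led by Suclg1 at 1.63 ± 0.08 and Idh3a at 1.39 ± 0.12. The transcription regulator Hnf4a, which drives proximal tubule genes, was higher by 9.20 ± 0.17, and Hif1a fell by 0.55 (SE 0.13, adjusted p = 0.00072). Of 10 hypoxia response genes 7 were higher and 0 lower, with a median of 1.04, led by Ndrg1 at 5.43 ± 0.19, Egln3, a prolyl hydroxylase that marks HIF proteins for breakdown, at 3.88 ± 0.45 and Bnip3 at 2.76 ± 0.11. Proximal tubule cells also had a higher mitochondrial share than progenitors, a median of 7.33% and 8.15% of UMIs against 5.70% and 6.17%, and its part in these differences was not tested. With a mitochondrial limit of 5% only 11 and 4 proximal tubule cells were left, under the minimum of 20, and comparisons with this class could not be fitted.

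Against stroma, the lineage in which Rbpj was targeted, the same 5 enzymes were higher and 3 lower in the proximal tubule (67.8% of all genes passed, 33.5% higher and 34.3% lower), and G6pc had a fitted difference of 7.26 (8.29 with a mitochondrial limit of 20%), again without a test. Fbp1 was 8.50 ± 0.15 higher, Pck1 7.41 ± 0.19, Ldhb 3.25 ± 0.13, Aldoa 1.51 ± 0.08 and Ldha 0.92 ± 0.09, with adjusted p between 3.67e-22 and 3.25e-09. Hk1 fell by 3.45 (SE 0.23), Hk2 fell by 3.32 (SE 0.42) and Pkm fell by 1.85 (SE 0.13). The Hk2 difference was -2.21 with no doublet removal, -2.56 with a mitochondrial limit of 20% and -4.07 without barcodes over 50000 UMIs. Without replicate 2 the Hk2 difference was -2.83 and the Hk1 difference -3.12; without replicate 1, which holds all 9 Hk2 UMIs, the fitted values were -6.42 and -4.03. Both comparisons use the same proximal tubule sums. All 12 TCA cycle genes were again higher, with a median of 0.96 against -0.04 over all genes. Of the 10 hypoxia response genes 4 were higher and 4 lower, with a median of 0.15: Ndrg1 was higher by 4.78 ± 0.20 and Bnip3 by 3.04 ± 0.12, while Adm fell by 4.21 (SE 0.28) and Egln3, higher than in progenitors, fell by 1.5 (SE 0.24).

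The first step of nephron differentiation, early nephron against nephron progenitors, changed Ldhb, Pck1, Fbp1 and Hk1. Ldhb was higher by 1.27 ± 0.12 (adjusted p = 3.18e-09), Pck1 by 2.50 ± 0.30 (2.77e-07) and Fbp1 by 2.03 ± 0.20 (9.48e-09), and Hk1 fell by 1.19 (SE 0.13, 5.03e-08). With a stricter gate Pck1 and Fbp1 were higher by only 1.58 and 1.09, and without barcodes over 50000 UMIs by 1.79 and 1.35. These were 4 of 9, near the share of all genes, of which 46.4% passed (25.0% higher, 21.5% lower). Pck1 and Fbp1 stayed low in absolute terms, at 137 and 182 UMIs over both libraries, and the proximal tubule markers moved with them, from 10.9 and 11.2 CPM in progenitors to 114 and 111; the part of cells already on the way to proximal tubule was not tested. Hk2 (log2 difference -0.06, 95% interval -0.33 to 0.22), Pkm (0.03, -0.19 to 0.24), Ldha (-0.17 ± 0.09, adjusted p = 0.109) and G6pc (-0.14, -1.42 to 1.14) did not pass, although Ldha did with a mitochondrial limit of 5% (-0.34, adjusted p = 0.0075). Aldoa (-0.19 ± 0.08, adjusted p = 0.0526) passed under 5 of 11 alternative settings only. Of 16 further glycolytic genes 5 were higher, among them Pfkp (3.14 ± 0.18), and 6 were lower, led by Eno3, the muscle enolase, which fell by 2.86 (SE 0.16). Of 5 further gluconeogenic genes 2 were higher, Fbp2 by 3.999 ± 0.308 and Slc37a4 by 1.77 ± 0.13, and Pcx fell by 1.06 (SE 0.17). Of 8 glucose and lactate transporters 3 were higher, among them Slc2a2 by 6.36 ± 0.25 and Slc5a1 by 4.49 ± 0.41, and 3 were lower. Slc16a1, the lactate and pyruvate transporter MCT1, fell by 2.45 (SE 0.14), from 135 and 147 CPM in progenitors to 24.7 and 31.0. Of 9 regulators of glycolytic flux tested 2 were lower and 0 higher, and Pdk1, the kinase that holds pyruvate out of the TCA cycle, fell by 1.88 (SE 0.13).

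Podocytes, the filtration cells that arise from the same progenitors, went another way. Against nephron progenitors, 5 of the 9 enzymes were lower and 2 higher, where 61.0% of all genes passed (29.0% higher, 32.0% lower). Hk2 fell by 4.09 on the log2 scale (SE 0.34, adjusted p = 2.94e-10), Ldha fell by 1.77 (SE 0.10, 3.15e-13), Ldhb fell by 1.56 (SE 0.13, 3.65e-10), Hk1 fell by 0.95 (SE 0.16, 1.72e-05) and Pkm fell by 0.54 (SE 0.12, 0.000298). Aldoa was higher by 0.84 ± 0.08 (2.57e-09), and Fbp1 by 1.46 ± 0.30 (0.0002), the latter from 32 UMIs against 44 and 2.29 with a mitochondrial limit of 5%. Both lactate dehydrogenase subunits thus fell together in podocytes, whereas in the proximal tubule both were higher. Of 16 further glycolytic genes 10 were lower and 2 higher with a median of -0.71, among them Gapdh, which fell by 1.18 (SE 0.10), and Pgk1, which fell by 0.90 (SE 0.14); the median over all genes was -0.06. Of 8 transporters 4 were lower and 1 higher, led by Slc16a1, which fell by 5.88 (SE 0.24). Of 9 regulators of glycolytic flux tested 3 were higher and 2 lower, with a median of 0.02; among the kinases that inhibit pyruvate dehydrogenase, Pdk2 was higher by 2.34 ± 0.12 and Pdk4 by 2.25 ± 0.18, while Pdk1 fell by 1.47 (SE 0.17). Podocytes were shallower than progenitors, with medians of 7235 and 7806 UMIs per cell, and carried 902 and 1056 CPM of the stroma markers; the part of either in these differences was not tested.

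The loop of Henle, a neighbouring differentiated segment, differed from the proximal tubule in the 8 enzymes other than G6pc, where 47.0% of all genes passed (23.4% higher, 23.6% lower). Hk1 was higher in the loop by 5.44 ± 0.21 (adjusted p = 3.54e-16), Hk2 by 3.57 ± 0.46 (6.55e-07), Pkm by 2.32 ± 0.13 (6.95e-13) and Aldoa by 0.53 ± 0.08 (4.58e-06). Without replicate 2 the Hk2 difference was 3.09, and without replicate 1 the fitted value was 6.59, against 0 UMIs in the proximal tubule. Of the other marker lists, distal tubule stood highest in loop cells, at 1124 and 774 CPM against 319 and 181 in the proximal tubule. Next were ureteric epithelium (342 and 335 against 98.4 and 78.4) and nephron progenitor (207 and 213 against 28.9 and 28.5). The part of these in the differences was not tested. G6pc had 1 UMI in the loop, a direct ratio of 227 in favour of the proximal tubule with a counting interval of 40.5 to 8989. Pck1 fell by 7.67 (SE 0.24, 9.3e-18), Fbp1 fell by 6.19 (SE 0.14, 8.93e-20) and Ldha fell by 0.45 (SE 0.09, 0.00024). The Ldhb difference was -0.34 ± 0.11 (adjusted p = 0.0191), but without the library block its adjusted p was 0.166, with DESeq2 0.0976 and with a mitochondrial limit of 20% 0.359, so this call was lost. Of the other lists, Fbp2 fell by 6.72 (SE 0.21), Pcx fell by 5.22 (SE 0.18) and Slc37a4 fell by 3.65 (SE 0.16). Of 8 glucose and lactate transporters 3 were higher and 3 lower. Slc2a2 fell by 7.96 (SE 0.24) and Slc5a1 fell by 4.07 (SE 0.20). Slc2a4 was higher by 9.13 ± 1.04, Slc16a7, the monocarboxylate transporter MCT2, by 5.88 ± 0.41 and Slc2a1, the glucose transporter GLUT1, by 1.40 ± 0.22. Of 10 hypoxia response genes 7 were lower and 0 higher. Of 12 TCA cycle genes 3 were higher and 3 lower, with a median of -0.19 against 0.01 over all genes. Mitochondrial shares of the 2 segments were close, 7.35% and 7.11% in the loop against 7.33% and 8.15%.

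**Figure D3:**
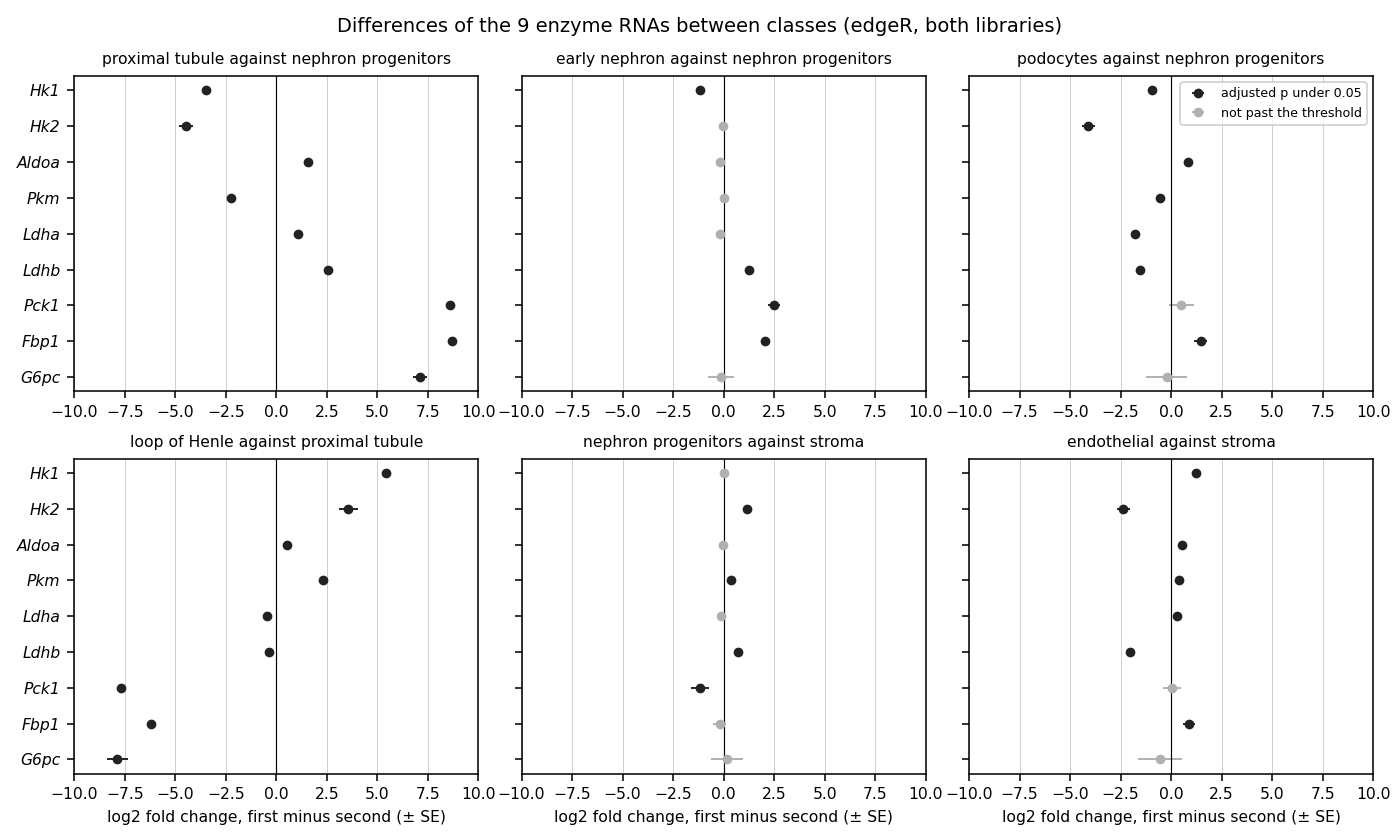
Log2 fold changes of the 9 enzyme RNAs in 6 comparisons between classes, with the first-named class minus the second on the horizontal axis, points at the edgeR estimate and bars at ± 1 SE; black points passed an adjusted p of 0.05 and grey ones did not (for G6pc in the proximal tubule panels no test is read). The proximal tubule panel runs from -4.48 for Hk2 to 8.70 for Fbp1, and the comparisons with stroma at the lower centre and right stay within 2.36 of 0.

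Nephron progenitors and stroma, the latter gated on Foxd1 and other interstitial genes, differed less. Hk2 was higher in progenitors by 1.16 ± 0.18 (adjusted p = 6.38e-06), Ldhb by 0.69 ± 0.12 (3.41e-05) and Pkm by 0.37 ± 0.11 (0.00756), and Pck1 was lower, so that 4 of 9 passed where 56.1% of all genes did (28.5% higher, 27.6% lower). The Pck1 difference (-1.17 ± 0.43, adjusted p = 0.026) rests on 24 UMIs against 27 and was lost under 3 settings. Pkm was lost with DESeq2 (adjusted p = 0.0618) and without barcodes over 50000 UMIs (0.0673). Hk1 differed by 0.01 (95% interval -0.24 to 0.26), Aldoa by -0.05 (-0.20 to 0.10) and Ldha by -0.16 (-0.33 to 0.02). Ldha passed with DESeq2's size factors (adjusted p = 0.0418), with DESeq2 (0.046) and without barcodes over 50000 UMIs (0.0305). Of 16 further glycolytic genes 9 were higher in progenitors and 3 lower, with a median of 0.28 against 0.00 over all genes; Eno3 was higher by 4.11 ± 0.22, Gpi1, glucose-6-phosphate isomerase, by 1.22 ± 0.09, Gapdh by 1.12 ± 0.10 and Eno1 by 0.85 ± 0.10. Of 8 transporters 4 were higher, led by Slc16a1 at 2.91 ± 0.15, and 1 was lower, Slc2a3, the glucose transporter GLUT3, which fell by 3.78 (SE 0.30). Of 15 transcription regulators 4 were higher and 7 lower, with a median of -0.65: Myc, an activator of glycolytic genes, was higher by 3.34 ± 0.14, and Epas1, which encodes HIF-2 alpha, fell by 4.84 (SE 0.19). Of 10 hypoxia response genes 5 were lower, led by Adm and Egln3, and Ankrd37 was higher by 1.13 ± 0.33 (adjusted p = 0.00536).

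Endothelial cells against stroma gave 5 enzymes higher and 2 lower, where 53.0% of all genes passed (27.1% higher, 25.9% lower). Hk1 was higher by 1.25 ± 0.13 (adjusted p = 1.44e-08), Aldoa by 0.55 ± 0.08 (3.12e-06), Pkm by 0.38 ± 0.11 (0.00817) and Ldha by 0.27 ± 0.09 (0.0149). Hk2 fell by 2.36 (SE 0.33, 2.11e-06) and Ldhb fell by 2.04 (SE 0.14, 1.55e-11), so that each isozyme pair shifted towards Hk1 and Ldha. With no doublet removal the Hk2 difference was -1.69. Fbp1 (0.89 ± 0.32, adjusted p = 0.0316, from 36 UMIs against 25) was lost under 5 settings. With a mitochondrial limit of 5% Pkm, Ldha and Fbp1 were lost and 4 enzymes passed. Of 16 further glycolytic genes 3 were higher and 4 lower, and of 8 transporters 1 was higher and 4 lower. Gapdh was higher by 0.67 ± 0.10, Gpi1 by 1.06 ± 0.09 and Pfkp by 2.13 ± 0.20, while Eno2, the neuronal enolase, fell by 2.72 (SE 0.73) and Slc16a1 fell by 1.59 (SE 0.23).

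Within the nephron progenitors, cells with a UMI of Cited1, a marker of the self-renewing state, were set against those without (756 and 817 cells against 60 and 57). None of the 9 passed with edgeR after the filter on low counts, where 2.44% of all genes did (1.27% higher, 1.17% lower), and none with DESeq2, while Ldhb passed with no filter (-0.38, adjusted p = 0.0124); 2 had an unadjusted p under 0.05 in edgeR, Hk1 and Ldhb. The Ldhb difference was -0.41 ± 0.15 (adjusted p = 0.224), at 237 and 169 CPM against 340.1 and 191. Hk1 was 0.54 ± 0.25 higher (adjusted p = 0.383), at 27.6 and 29.3 against 18.9 and 19.6. With 39 Hk1 and 42 Hk2 UMIs in the Cited1-negative cells, only large differences of these genes could be seen, and the Hk2 difference was -0.41 ± 0.30 (adjusted p = 0.684).

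Dividing progenitors, with UMIs of at least 2 of Mki67, Top2a, Cdk1, Ccnb1, Ube2c and Cenpf (349 and 290 cells), were set against the other progenitors (467 and 584 cells). Aldoa was lower in dividing cells, at 164 and 159.8 CPM against 208 and 193, a log2 difference of -0.36 ± 0.08 (adjusted p = 0.00269). It was 1 of 9, where 5.44% of all genes passed (4.34% higher, 1.1% lower), and its adjusted p was 0.0579 without the library block. Hk1 stood at 25.1 and 24.7 against 30.8 and 33.4 (-0.42 ± 0.13, adjusted p = 0.0607) and passed under 4 of 12 alternative settings. Hk2, at 20.7 and 13.2 against 18.8 and 12.0, differed by 0.09 (95% interval -0.23 to 0.41), Pkm by 0.27 (0.06 to 0.48, adjusted p = 0.185), Ldha by 0.11 (-0.06 to 0.29) and Ldhb by 0.22 (-0.01 to 0.46). Of all genes called here 79.8% were higher in dividing cells, and 69.5% with DESeq2's size factors. Dividing cells were deeper, with medians of 23337 and 20984 UMIs against 13692 and 13349, and a gate on detected UMIs takes deeper cells; when the division was made after thinning, Aldoa and Hk1 both passed.

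The proximal tubule could not be divided into Slc34a1-positive and Slc34a1-negative cells as intended, because only 4 and 1 cells had no UMI of Slc34a1, the sodium-phosphate cotransporter NaPi-2a of mature proximal tubule. Cells were therefore divided at each library's median Slc34a1 level, a choice made after the data were seen (88 and 57 cells above, 88 and 58 below). Of the 9 enzymes 5 were higher in Slc34a1-high cells and 1 lower, where 4.97% of all genes passed (2.97% higher and 2.01% lower). G6pc stood at 42.3 and 64.5 CPM in Slc34a1-high cells against 5.47 and 10.6 in Slc34a1-low cells, a log2 difference of 2.80 ± 0.28 (adjusted p = 5.14e-07). Pck1 stood at 251 and 374 against 105 and 164 (1.27 ± 0.12, adjusted p = 2.45e-07), and Fbp1 at 635 and 510.5 against 276 and 273 (1.10 ± 0.10, adjusted p = 7.73e-08). In each library the Slc34a1-high cells were above the Slc34a1-low cells of both libraries for all 3, and these 3 calls held under the 10 alternatives that could be fitted. After thinning, all 3 RNAs were found together in 9.20% and 21.4% of Slc34a1-high cells against 1.16% and 3.45% of Slc34a1-low cells, and none of them in 4.60% and 1.79% against 30.2% and 17.2%.

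Ldha was also higher in Slc34a1-high cells (469.7 and 488 against 345 and 386; 0.44 ± 0.10, adjusted p = 0.0075), as was Aldoa (588 and 509.7 against 494 and 429; 0.30 ± 0.08, adjusted p = 0.034). Pkm was lower (50.3 and 26.4 against 75.9 and 67.7; -0.79 ± 0.19, adjusted p = 0.0155). Without barcodes over 50000 UMIs these last 3 calls were lost and 3 enzymes passed (adjusted p = 0.0893, 0.0745 and 0.0982); with a stricter gate Ldha (0.0531) and Aldoa (0.633) were lost, and without the library block Aldoa was (0.171). Ldhb did not pass, at 1324 and 1082 against 1295 and 1011 (0.11, 95% interval -0.12 to 0.34), nor did Hk1 with 11 UMIs against 20 and Hk2 with 5 against 4. Of 5 further gluconeogenic genes 4 were higher, with Pcx at 1.73 ± 0.13, Slc37a4 at 0.82 ± 0.13 and Fbp2 at 0.50 ± 0.12, and Slc2a2 was higher by 0.84 ± 0.11. Hnf4a (0.32 ± 0.10, adjusted p = 0.079) did not pass. Slc34a1-high cells had medians of 30181 and 24775 UMIs against 22172 and 25724, and mitochondrial shares of 7.86% and 8.61% against 6.66% and 7.53%; the part of these differences was not tested.

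**Figure D4:**
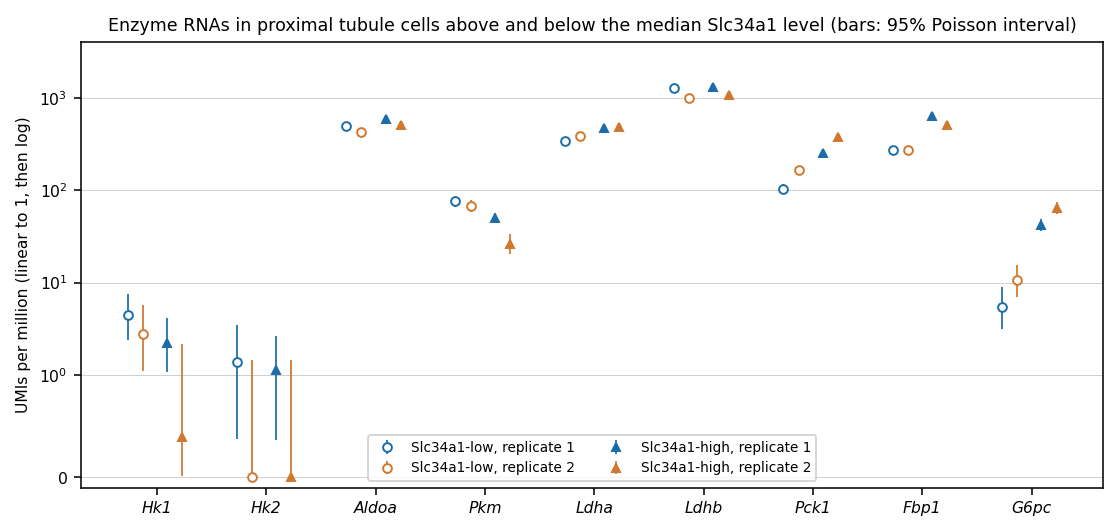
Level of the 9 enzyme RNAs in proximal tubule cells below (open circles) and above (filled triangles) the median Slc34a1 level of their library; the vertical axis is CPM, linear from 0 to 1 and logarithmic above, colours are the 2 libraries and bars are exact 95% Poisson intervals. G6pc, Pck1 and Fbp1 are higher in the Slc34a1-high cells of both libraries, and Ldhb lies at similar levels in all 4 groups.

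The genes whose levels across the 10 classes were most like those of each enzyme were ranked by Pearson correlation of log2(CPM + 1) among 12189 genes with at least 10 CPM in some class. These are descriptions over 10 points that share libraries and the low values of erythroid cells. For Pck1 they were Slc3a1 (r = 0.989), Slc7a12 (0.987) and Slc22a19 (0.986), and for G6pc Slc22a27 (0.998), Gm15318 (0.995) and Miox (0.995). For Fbp1 they were Acnat2 (0.965), D630023F18Rik (0.962) and Pck1 (0.962). Slc3a1 and Slc7a12 encode amino acid transport proteins, and Miox an enzyme of myo-inositol breakdown in the kidney. Hk1 was most like Ddit4 (0.931), Sh3pxd2a (0.880) and Slc44a2 (0.871), and Hk2 most like Prtn3 (0.933), Neurl1a (0.907) and Slc7a5 (0.885). Aldoa was most like Pbxip1 (0.977), Letm1 (0.975) and Borcs5 (0.973), and Pkm most like Zfp472 (0.973), Inip (0.971) and Dclre1b (0.965). Ldha was most like mt-Atp8 (0.978), Shmt2 (0.976) and Fkbp5 (0.970), and Ldhb most like Sema3c (0.980), Sh3gl2 (0.979) and Wwc1 (0.973). Between the enzymes, r was 0.967 for Pck1 and G6pc and 0.776 for Aldoa and Ldha, but 0.404 for Ldha and Ldhb and 0.431 for Hk1 and Hk2.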

How the data were processed

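Single-cell RNA was measured in 2 libraries of mutant newborn kidney. The authors deposited raw UMI counts per gene and barcode, unfiltered; per the file headers they come from Cell Ranger 4, and the submitters' processing notes name Cell Ranger 6.0.1 and mm10. Barcodes with at least 2000 UMIs and at most 10% mitochondrial UMIs were kept, and Scrublet (scanpy 1.11.5) doublets removed (4.98% and 4.12%). Cells were gated on marker scores above 0.3 with at least 3 markers, or at least 2 for lists of up to 4 markers. This rule was set after marker distributions were seen. Cells in no gate (813 and 718) or several (455 and 290), and distal tubule (16 and 8) and mural cells, were left out of comparisons. UMIs were summed per class and library and tested with edgeR 4.0.16 (TMM, filterByExpr, quasi-likelihood, library as block, threshold 0.05). The 2 libraries are the block because every class was taken from both, so the pairing is by library. DESeq2 1.42.0 was an alternative. Counts were simulated for proximal tubule against nephron progenitors (14946 genes) with a dispersion, the spread beyond counting error, of 0.02. Of genes changed by 1 on the log2 scale 77 of 100 were recovered, and 93 of 100 changed by 1.5, with 6 false calls. The real counts had a fitted common dispersion of 0.00411. Changed genes were drawn only from those above a minimum mean count, so these rates hold for that setting. Intervals of levels, shares and count ratios are exact and cover counting error only. Intervals of log2 differences are approximate and were computed from the edgeR estimate and its SE. The 9 enzymes and all lists were chosen with earlier results of these data known. Beyond the 9 enzymes, text names the listed pathway genes by the size of their change or as isozymes and partners of the 9. Some listed genes are counted in their lists and are not reported here by name.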

Additional observations from a re-analysis of the deposited data

How the results depend on the processing

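Leaving out G6pc in the 3 comparisons with the proximal tubule, 918 values came from a test of an enzyme under an alternative setting. Of these 882 kept their side of the threshold, 22 lost the call and 14 gained one. None that passed changed its direction, and 29 of the 882 changed sign without passing in either setting. Numbers of enzymes called moved by over 1.5 times as follows. Endothelium against stroma went from 7 to 4 with a mitochondrial limit of 5%. Cited1-positive against Cited1-negative cells went from 0 to 1 with no filter on low counts (Ldhb, adjusted p = 0.0124). Dividing against non-dividing cells went from 1 to 2 with DESeq2's size factors, with no filter, with no doublet removal and with division after thinning, and to 0 without the library block. Slc34a1-high against Slc34a1-low cells went from 6 to 3 without barcodes over 50000 UMIs. By less than that, early nephron against progenitors went from 4 to 5 with DESeq2, a minimum of 5000 UMIs, no doublet removal or a stricter gate (Aldoa gained), and to 6 with a mitochondrial limit of 5% (Aldoa and Ldha gained). Progenitors against stroma went from 4 to 5 with DESeq2's size factors (Ldha gained), stayed at 4 with DESeq2 (Pkm lost, Ldha gained) and went to 3 with a mitochondrial limit of 5% or no doublet removal (Pck1 lost) and without barcodes over 50000 UMIs (Pkm and Pck1 lost, Ldha gained). The loop against the proximal tubule, G6pc left out, went from 8 to 7 with DESeq2 or a mitochondrial limit of 20% (Ldhb lost), endothelium against stroma from 7 to 6 with no filter, DESeq2 or a minimum of 5000 UMIs (Fbp1 lost) and Slc34a1-high against Slc34a1-low cells from 6 to 4 with a stricter gate (Ldha and Aldoa lost). Without the library (replicate) block, 571 genes in place of 828 were called between dividing and non-dividing cells, and 467 in place of 734 between Slc34a1-high and Slc34a1-low cells; the enzymes called were 7 for the loop, 6 for the endothelium and 5 for Slc34a1, where Ldhb, Fbp1 and Aldoa were lost. The cause of these moves was not tested. Leaving out 1 library leaves values with no test; of 174 such values 20 moved by more than the spread between the libraries, and 13 changed sign, none of them an enzyme that had passed. Hk2 also moved by over 1.5 times. In the proximal tubule against stroma it went to -2.21 (no doublet removal), -2.56 (mitochondrial limit of 20%) and -4.07 (without barcodes over 50000 UMIs). For the loop against the proximal tubule it went to 2.42, 2.54 and 4.30 under the same settings. In endothelium against stroma it went to -1.69 (no doublet removal). Pck1 moved as far in the loop against the proximal tubule, to -6.90 (without barcodes over 50000 UMIs). Hk1 and Hk2 in the proximal tubule and G6pc outside it rest on few UMIs.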
